A study of Mus musculus with 9 samples.

Results

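The genes of the DACH, EYA and SIX-family factors studied here are 9 of the 53801 genes in the count table of cultured mouse spermatogonial stem cells (SSCs) that lost Prmt5, the gene of an arginine methyltransferase, and received it back by lentivirus. They were found by their symbols, Dach1, Dach2, Eya1, Eya2, Eya3, Eya4, Six2, Six4 and Six5, and they were selected on the CPM values of these libraries, in which Dach1 was far lower with both constructs than with 4-hydroxytamoxifen (4OHT) alone. Their values against 4OHT alone are therefore given as a description without a test, and tests are given for the members only between the 2 constructs. The question was whether the partners of Dach1 shared its fall. All 9 members passed the filter on low counts, which left 22452 genes, although Dach2 did so on 12 to 65 counts per library. DACH and SIX-family proteins are transcription factors, whereas EYA proteins are coactivators that SIX-family proteins bring to DNA, so the 9 genes are not all DNA-binding factors.

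The 9 libraries came from SSCs cultured from mice with the alleles Prmt5 flox/flox and Rosa26-CreERT2, and all of them, controls included, were given 1 µM 4OHT, which releases the Cre recombinase that is driven from the ubiquitous Rosa26 locus. Of these, 3 received 4OHT alone, 3 also carried lentiviral PRMT5 (E444Q), the catalytically dead mutant, and 3 carried lentiviral PRMT5 (WT). The labels give only MU and OE for the constructs, which were read as PRMT5 (E444Q) and PRMT5 (WT), and the comparison of E444Q and WT depends on this reading. Neither a library without 4OHT nor one with an empty vector was analysed here, so the effect of a construct and that of the transduction cannot be told apart. The age of the mice and whether the replicates were separate cultures are not given in the sources used here, so the p-values measure the spread between these libraries, which may be technical.

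The retinal determination network, in which PAX factors act above EYA, DACH and SIX-family proteins, was described first in the fly eye and is used again in vertebrate muscle, kidney, ear and gonad. A SIX-family protein binds DNA and recruits an EYA protein, which is both a coactivator and a phosphatase, and DACH proteins, which are related to the SKI corepressors, mostly oppose them by bringing in SIN3 and histone deacetylases. In the embryonic mouse gonad, SIX-family genes, Six4 among them, act upstream of the precursors of the supporting cells, and DACH1 is best known as a repressor of the cell cycle gene Ccnd1.

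Total counts ranged from 78751996 to 365719548 per library and were highest in PRMT5 (E444Q) cells. How many counts 1 read pair gave is not known. Values of 4 counts were over-represented, so about 4 counts may stand for 1 read pair. A floor of 12 counts in place of 3 is therefore given for reading low values. It was not a filter, and lower counts stayed in the fits. Those 12 counts come to between 0.0317 and 0.158 CPM (counts scaled to library size, corrected by the TMM method). Prmt5 was first checked in each library. It measured 31.9, 30.8 and 28.2 CPM with 4OHT alone, 145.2, 147.1 and 146.1 CPM in PRMT5 (E444Q) cells and 1072.3, 1071.2 and 1084.9 CPM in PRMT5 (WT) cells. The groups did not overlap, and Prmt5 was 2.88 lower in PRMT5 (E444Q) cells than in PRMT5 (WT) cells on the log2 scale (log2 fold change -2.88 ± 0.0515 SE, edgeR quasi-likelihood test, adjusted p = 1.09e-12). The 2 constructs thus differed in Prmt5 RNA as well as in the mutation, and these cannot be told apart. Reads of the transgene and of the endogenous gene cannot be told apart in these counts either.

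The upstream sequences of 3 members are shown because these genes went different ways with the same constructs. Dach1 was the furthest below 4OHT alone, Six5 was lower and Six4 was higher. In the RefSeq promoter table (GRCm38.p6), 7 of the 9 members were found, all but Eya1 and Eya2. The sequences run 5′ to 3′ on the strand of the gene and end at the RefSeq start of transcription (for Six4, at its first annotated exon), and CpG dinucleotides are in capitals. They lie at chr14:98169766-98170015 on the minus strand for Dach1, at chr12:73113457-73113675 on the minus strand for Six4 and at chr7:19094294-19094543 on the plus strand for Six5.
Dach1: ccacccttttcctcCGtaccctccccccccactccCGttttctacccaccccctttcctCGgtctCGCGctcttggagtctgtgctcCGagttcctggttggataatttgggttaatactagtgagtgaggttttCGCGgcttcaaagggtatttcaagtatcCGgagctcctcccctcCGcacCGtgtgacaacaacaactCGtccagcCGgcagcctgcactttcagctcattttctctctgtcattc
Six4: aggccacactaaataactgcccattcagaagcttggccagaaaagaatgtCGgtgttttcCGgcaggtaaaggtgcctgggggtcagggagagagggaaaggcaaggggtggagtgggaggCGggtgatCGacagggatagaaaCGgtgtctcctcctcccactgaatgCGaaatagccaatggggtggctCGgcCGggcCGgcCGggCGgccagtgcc
Six5: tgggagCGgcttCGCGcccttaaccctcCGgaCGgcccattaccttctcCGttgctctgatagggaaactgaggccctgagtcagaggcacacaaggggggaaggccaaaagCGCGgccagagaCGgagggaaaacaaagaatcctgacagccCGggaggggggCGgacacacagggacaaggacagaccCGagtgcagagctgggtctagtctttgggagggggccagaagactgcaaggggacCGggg
Each of these 3 windows held 13 CpG in its 250 bases (the 219 bases printed for Six4 hold 11), against a median of 6.0 over the 32851 windows of the table. These 3 were chosen for display, and the other windows of the members held 13 to 35. The core of the MEF3 site that SIX-family proteins bind (TCAGGTT, or AACCTGA on the other strand) was in 3.49% of all windows. Among the windows of the members it was found only in another window of Six4, which overlaps an annotated exon, and a match is no proof of a site.

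The DACH genes were both lower with the constructs, by very different amounts. Dach1 (ENSMUSG00000055639, chr14:97786853-98169765, minus strand), the corepressor after which the question was asked, measured 11.5, 10.5 and 11.8 CPM with 4OHT alone, 0.268, 0.206 and 0.307 CPM in PRMT5 (E444Q) cells and 0.111, 0.278 and 0.204 CPM in PRMT5 (WT) cells. The 3 libraries with 4OHT alone stood far above the other libraries, and the constructs overlapped each other. Its mean was 43.2 times higher with 4OHT alone than in PRMT5 (E444Q) cells and 56.9 times higher than in PRMT5 (WT) cells. The log2 fold changes were -5.44 ± 0.227 (SE) and -5.80 ± 0.246, and 11 and 58 of the 22452 genes tested had more negative values. Dach1 was picked by this fall, so its rank is a description only. The raw counts were 870, 878 and 1055 with 4OHT alone, 53, 78 and 73 in PRMT5 (E444Q) cells and 9, 26 and 32 in PRMT5 (WT) cells, so the level left in PRMT5 (WT) cells rests on few counts. The 9 counts in the first PRMT5 (WT) library lie under the floor of 12 counts.

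Dach2 (ENSMUSG00000025592, chrX:113297510-113836386, plus strand), the paralog with the same fold of DNA-binding domain, was scarcely detected. It did not pass the filter when counts were divided by 4, and its first PRMT5 (WT) library was at the floor of 12 counts. It measured 0.501, 0.371 and 0.558 CPM with 4OHT alone, 0.238, 0.172 and 0.0967 CPM in PRMT5 (E444Q) cells and 0.148, 0.246 and 0.332 CPM in PRMT5 (WT) cells. All 6 libraries with a construct were below the lowest with 4OHT alone, and the log2 fold changes were -1.50 ± 0.515 and -0.96 ± 0.517. Dach2 therefore lay in the direction of Dach1, with a fold of 2.82 and 1.97 in place of 43.2 and 56.9.

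**Figure D1:**
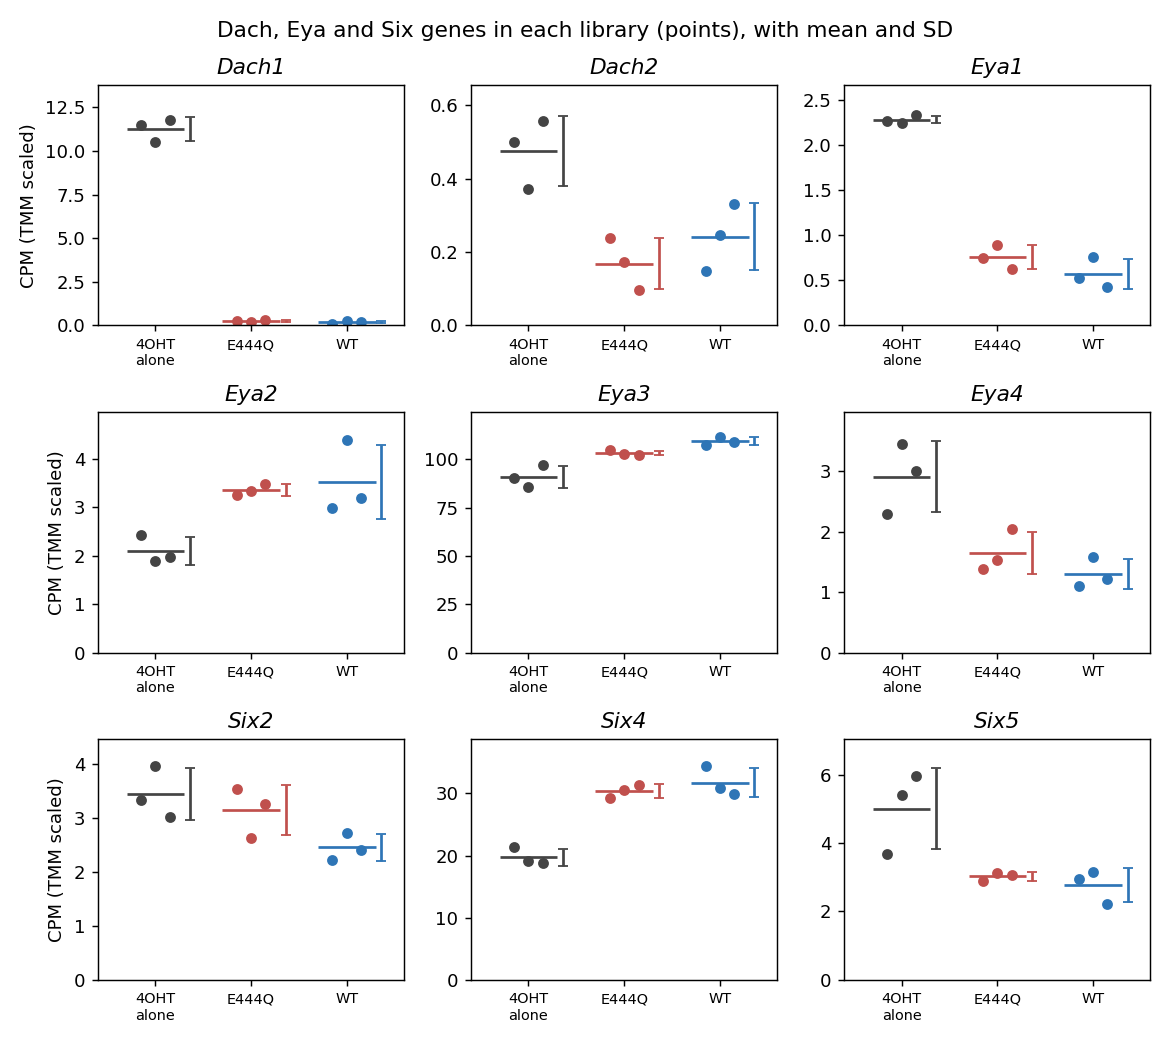
CPM of each member (vertical axis, starting at 0, its range differing between panels) in the 3 libraries of each group, with 4OHT alone in grey, PRMT5 (E444Q) in red and PRMT5 (WT) in blue. Points are libraries, horizontal lines are means and bars are the SD; Dach1 is between 10.5 and 11.8 CPM with 4OHT alone and at most 0.307 CPM elsewhere, whereas Eya2, Eya3 and Six4 are higher with both constructs.

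The EYA genes split, with Eya1 and Eya4 lower and Eya2 and Eya3 higher with both constructs. Eya1 (ENSMUSG00000025932, chr1:14168954-14310235, minus strand), which is needed for kidney and ear development, measured 2.27, 2.25 and 2.33 CPM with 4OHT alone, 0.754, 0.888 and 0.623 CPM in PRMT5 (E444Q) cells and 0.529, 0.759 and 0.427 CPM in PRMT5 (WT) cells. No library with a construct reached 1 CPM, and the groups with a construct did not overlap 4OHT alone. The log2 fold changes were -1.59 ± 0.249 and -2.01 ± 0.26, the largest of the members after Dach1. Eya4 (ENSMUSG00000010461, chr10:23102963-23350786, minus strand), known for its part in hearing and in the heart, measured 2.29, 3.45 and 3.0 CPM, then 1.39, 1.53 and 2.05 CPM and then 1.11, 1.59 and 1.22 CPM in the same order of groups. Here the highest PRMT5 (E444Q) library came close to the lowest library with 4OHT alone without reaching it, and the log2 fold changes were -0.81 ± 0.22 and -1.16 ± 0.227.

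Eya2 and Eya3 lay on the other side. Eya2 (ENSMUSG00000017897, chr2:165595032-165771727, plus strand) measured 2.43, 1.89 and 1.97 CPM with 4OHT alone, 3.25, 3.33 and 3.48 CPM in PRMT5 (E444Q) cells and 2.98, 4.38 and 3.19 CPM in PRMT5 (WT) cells. Each library with a construct was above each with 4OHT alone, by 0.68 ± 0.174 and 0.75 ± 0.176 on the log2 scale, and the second PRMT5 (WT) library was the highest. Eya3 (ENSMUSG00000028886, chr4:132638987-132724765, plus strand), the most broadly expressed EYA gene, measured 90.4, 85.7 and 97.1 CPM, then 104.6, 103.0 and 102.4 CPM and then 107.6, 111.8 and 109.2 CPM. Its 3 groups did not overlap one another, but the log2 fold changes of 0.18 ± 0.0511 and 0.27 ± 0.0513 against 4OHT alone were the smallest among the members after Six2 in PRMT5 (E444Q) cells. They depended on the scaling, and were 0.30 and 0.35 when libraries were scaled by their total counts.

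The SIX-family genes also went different ways. Six4 (ENSMUSG00000034460, chr12:73099609-73113456, minus strand), which acts in muscle, kidney and gonad, measured 21.3, 19.1 and 18.8 CPM with 4OHT alone, 29.3, 30.5 and 31.4 CPM in PRMT5 (E444Q) cells and 34.4, 30.9 and 29.9 CPM in PRMT5 (WT) cells. It was higher in each of the 6 libraries with a construct, by 0.62 ± 0.0728 and 0.68 ± 0.0734 on the log2 scale. Six5 (ENSMUSG00000040841, chr7:19094594-19098549, plus strand), which lies beside the myotonic dystrophy kinase gene Dmpk, measured 3.68, 5.4 and 5.96 CPM, then 2.89, 3.12 and 3.07 CPM and then 2.95, 3.16 and 2.21 CPM. All 6 libraries with a construct were below 4OHT alone, whose first library was lower than its other 2, and the log2 fold changes were -0.73 ± 0.186 and -0.86 ± 0.19.

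Six2 (ENSMUSG00000024134, chr17:85684277-85688274, minus strand), which keeps kidney progenitors undifferentiated, was the only member with construct libraries among those with 4OHT alone. It measured 3.33, 3.97 and 3.03 CPM with 4OHT alone, 3.55, 2.64 and 3.27 CPM in PRMT5 (E444Q) cells and 2.23, 2.73 and 2.41 CPM in PRMT5 (WT) cells. Of the PRMT5 (E444Q) libraries, 2 lay among those with 4OHT alone and 1 lay below them (log2 fold change -0.13 ± 0.165), and the PRMT5 (WT) libraries lay below them (-0.49 ± 0.168). The first of these values ran from -0.22 to -0.01 over 17 alternative fits.

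Against 4OHT alone, 5 members were thus lower without overlap in PRMT5 (E444Q) cells, 3 were higher and 1 overlapped, where 30.1% of all genes tested were lower and 33.8% higher without overlap. In PRMT5 (WT) cells, 6 were lower and 3 higher, where 30.1% and 31.5% of all genes were. These contrasts share the 3 libraries with 4OHT alone and were used to choose the members. The members' median log2 fold change was -0.729 in PRMT5 (E444Q) cells and -0.86 in PRMT5 (WT) cells, against 0.0435 and 0.0179 over all genes tested. In bulk RNA, fewer cells of a type and less RNA per cell cannot be told apart.

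**Figure D2:**
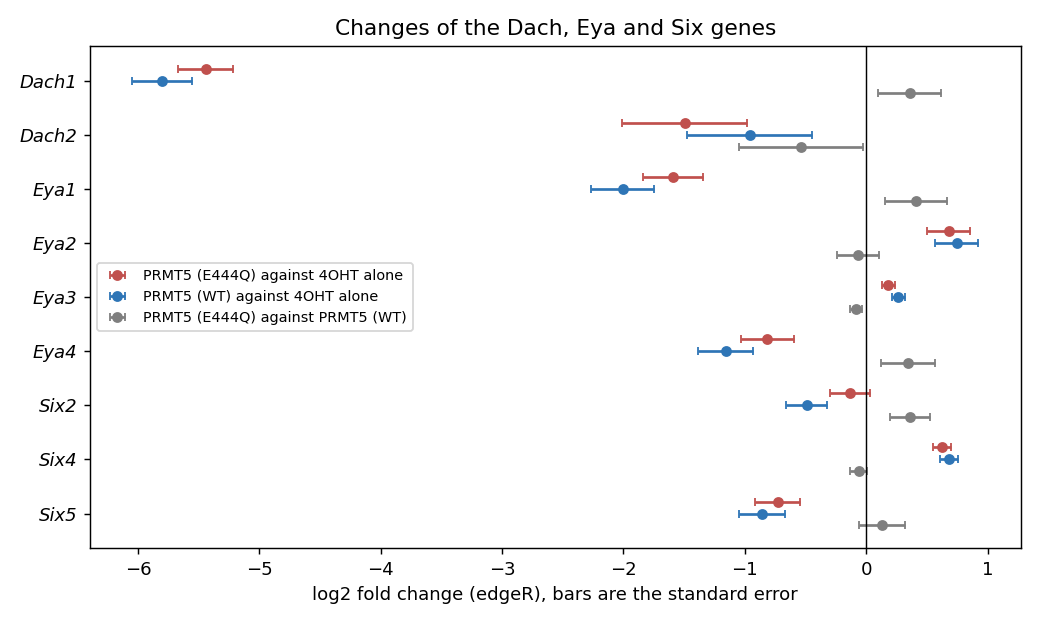
Log2 fold change of each member (horizontal axis) for PRMT5 (E444Q) against 4OHT alone (red), PRMT5 (WT) against 4OHT alone (blue) and PRMT5 (E444Q) against PRMT5 (WT) (grey), with a line at 0. Bars are the standard error worked back from the edgeR F statistic. Dach1 stands apart at -5.44 and -5.80, the other members lie between -2.01 and 0.75, and all grey points lie between -0.54 and 0.41.

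The 2 constructs were then compared with each other, a contrast that the choice of members did not use directly. That choice rested on Dach1 being low with both constructs, so the test of Dach1 here is not independent of it. The constructs were made to differ in the catalytic activity of PRMT5, but they also differed in Prmt5 RNA, so the comparison does not isolate that activity. At the protein level, the paper reports from western blots that either construct restored PRMT5. Protein was not measured in these libraries. None of the 9 members passed an adjusted p of 0.05 over all 22452 genes in the edgeR quasi-likelihood test, where 3.17% of all genes did, and 1 member, Six2, had an unadjusted p under 0.05, as 12.4% of all genes had. Dach1 was 0.36 higher in PRMT5 (E444Q) cells on the log2 scale, with a 95% interval from -0.20 to 0.91 (adjusted p = 0.659). An exact two-sided permutation test of its CPM gave p = 0.4, where 3 libraries against 3 cannot go below 0.1. The interval is narrow beside the distance of both constructs from 4OHT alone, but it still allows a difference between the constructs in either direction.

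Among the other members, Six2 was nearest to the threshold, 0.36 higher in PRMT5 (E444Q) cells with an interval from 0.00 to 0.72 (edgeR, unadjusted p = 0.0488, adjusted p = 0.397). The widest interval was that of Dach2, from -1.64 to 0.57 around -0.54 (adjusted p = 0.76). Eya1 differed by 0.41 (-0.14 to 0.96, adjusted p = 0.577) and Eya4 by 0.34 (-0.14 to 0.82, adjusted p = 0.608). Closer limits were set for the more abundant genes. Eya3 differed by -0.08 ± 0.0509 (adjusted p = 0.569), although each PRMT5 (E444Q) library was below each PRMT5 (WT) library, as in 12.8% of all genes, and Six4 by -0.06, with an interval from -0.22 to 0.09 (adjusted p = 0.815). Eya2 differed by -0.07 (-0.43 to 0.30, adjusted p = 0.933) and Six5 by 0.13 (-0.27 to 0.53, adjusted p = 0.86). The sign for Eya2, Six4 and Six5 turned when a single PRMT5 (WT) library was left out.

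Per length of exon, the members spanned a wide range of levels, in which Eya3 was always highest. With 4OHT alone the order was Eya3 at 16.1 ± 1.01 CPM per kb (SD, n = 3), then Six4, Six5, Six2 and Dach1 between 1.82 and 1.54 CPM per kb, then Eya2 at 0.707, Eya4 at 0.31, Eya1 at 0.292 and Dach2 at 0.0483 CPM per kb. The neighbours from Six4 to Dach1 overlapped in their libraries, as did Eya4 and Eya1. With the constructs Dach1 dropped to the foot of this order, at 0.0356 and 0.027 CPM per kb, beside Dach2 at 0.0171 and 0.0245 CPM per kb, and its libraries overlapped those of Dach2 in PRMT5 (WT) cells. Between them and Eya3 lay Six4 at 2.8 and 2.92 CPM per kb, Six2 at 1.49 and 1.16, Eya2 at 1.13 and 1.19, Six5 at 1.01 and 0.923, Eya4 at 0.176 and 0.139 and Eya1 at 0.0967 and 0.0732 CPM per kb in PRMT5 (E444Q) and in PRMT5 (WT) cells. The libraries of Six2, Eya2 and Six5 overlapped in PRMT5 (WT) cells, and no neighbours among these genes did in PRMT5 (E444Q) cells.

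Summed per family, the DACH genes measured 1.58 ± 0.101 CPM per kb with 4OHT alone, 0.0527 ± 0.00764 in PRMT5 (E444Q) cells and 0.0515 ± 0.0185 in PRMT5 (WT) cells. The share of Dach1 in that sum was 97.0%, 67.5% and 52.4%, and the sum followed Dach1. The sum over the EYA genes was 17.4 ± 1.01, 19.7 ± 0.142 and 20.8 ± 0.679 CPM per kb, of which Eya3 made up 92.5%, 92.9% and 93.3%. The sum over the 3 SIX-family members was nearly level, at 5.11 ± 0.336, 5.29 ± 0.184 and 5.0 ± 0.331 CPM per kb, while the share of Six4 was 35.6%, 52.9% and 58.4%. Six2 and Six5 held 31.8% and 32.6% of it with 4OHT alone and 23.1% and 18.4% in PRMT5 (WT) cells.

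**Figure D3:**
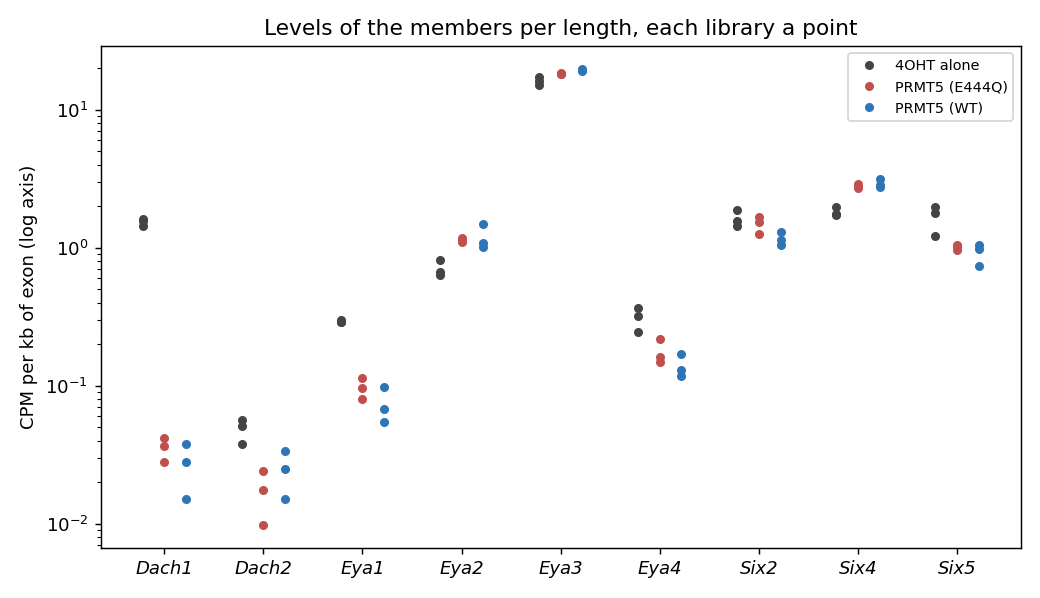
Level of each member in CPM per kb of exon (vertical axis, log scale), 1 point per library, with 4OHT alone in grey, PRMT5 (E444Q) in red and PRMT5 (WT) in blue. Eya3 is at the top in every library, and Dach1 goes from the level of the SIX-family genes with 4OHT alone to that of Dach2 with the constructs.

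The rest of the network was read from 6 lists of 51 genes, which are no members, of which 47 passed the filter. In PRMT5 (E444Q) cells 10 of them rose and 25 fell against 4OHT alone, and in PRMT5 (WT) cells 11 rose and 22 fell, where 29.5% and 29.9% of all genes rose and 26.5% and 27.9% fell. Between the constructs 4 were higher in PRMT5 (E444Q) cells and none lower, where 2.12% and 1.06% of all genes were (14 had an unadjusted p under 0.05). The lists share some genes, such as Ccnd1, and the contrasts against 4OHT alone again share their controls.

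Upstream, the PAX genes moved in both directions. Of 8 tested, 2 rose and 2 fell in PRMT5 (E444Q) cells, and 2 rose and 3 fell in PRMT5 (WT) cells, with list medians of -0.188 and -0.85. Pax8, a factor of thyroid and kidney, measured 0.442 to 0.535 CPM with 4OHT alone and 2.51 to 4.19 CPM with the constructs, and rose by 2.63 ± 0.221 in PRMT5 (E444Q) cells and 2.86 ± 0.223 in PRMT5 (WT) cells (edgeR, adjusted p = 1.87e-07 and 7.75e-08). Pax7, which marks muscle stem cells and also some spermatogonia, measured 2.45 to 3.11 CPM and then 5.17 to 6.17 CPM, and rose by 0.96 and 1.00 (adjusted p = 2.93e-05 and 2.12e-05). Pax1 and Pax6, which fell with both constructs, were below a mean of 1 CPM over the libraries. Six3, a SIX-family gene that is no member, held at most 0.172 CPM in each library and did not pass.

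The genes of the SKI family and of the corepressors that DACH proteins use mostly fell. In PRMT5 (E444Q) cells 6 of 9 fell and 2 rose, and in PRMT5 (WT) cells 5 fell and 2 rose, with medians of -0.368 and -0.346. Skor1, a SKI relative known from neurons, fell from 16.0, 20.5 and 18.8 CPM with 4OHT alone to 1.09, 0.774 and 0.602 CPM in PRMT5 (E444Q) cells and to 0.763, 1.04 and 1.29 CPM in PRMT5 (WT) cells. Its log2 fold changes were -4.49 ± 0.223 and -4.13 ± 0.225 (edgeR, adjusted p = 9.75e-10 and 2.02e-09). Sin3a, a scaffold of histone deacetylase complexes, was among the 2 that rose, by 0.49 and 0.55 (adjusted p = 2.52e-06 and 6.95e-07). None of these 9 differed between the constructs.

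The genes of proteins that bind EYA or SIX-family proteins moved in both directions, with 3 of 6 rising and 3 falling in PRMT5 (E444Q) cells, 3 rising and 1 falling in PRMT5 (WT) cells, and medians of 0.0318 and 0.114. The G protein subunits that hold EYA2 in the cytoplasm went opposite ways. Gnai2 fell by 0.88 with each construct, from 459.5 to 537.3 CPM to 262.7 to 281.9 CPM (edgeR, adjusted p = 1.35e-08 and 1.13e-08), whereas Gnaz rose by 0.82 and 0.96, from 38.4 to 47.7 CPM to 73.7 to 84.9 CPM (adjusted p = 2.09e-07 and 3.79e-08).

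Of the 16 described target genes of EYA and SIX-family proteins that were tested, 3 rose and 8 fell in PRMT5 (E444Q) cells, and 4 rose and 7 fell in PRMT5 (WT) cells, with medians of -0.288 and -0.437. Ccnd1, which encodes cyclin D1 and is described as a target of SIX-family proteins and of DACH1 alike, fell most, from 613.1, 626.0 and 601.4 CPM with 4OHT alone to 93.0, 96.1 and 92.5 CPM in PRMT5 (E444Q) cells and 81.2, 78.5 and 75.5 CPM in PRMT5 (WT) cells. Its log2 fold changes were -2.71 ± 0.0477 and -2.97 ± 0.0484 (edgeR, adjusted p = 1.13e-13 and 2.98e-14). Zfpm2, a cofactor of GATA4 in the gonad, fell by 2.35 ± 0.106 and 2.61 ± 0.109, from 35.1 to 37.8 CPM to 4.8 to 7.46 CPM (adjusted p = 3.71e-10 and 1.4e-10). Of the 7 described targets of DACH1, none rose and 6 fell with each construct, and Nanog did not pass. Their medians were -1.1 and -2.09. Sox2, a pluripotency factor, fell from 21.0, 27.3 and 21.9 CPM to 0.83, 0.748 and 0.707 CPM and 0.8, 0.31 and 0.472 CPM, with log2 fold changes of -4.94 ± 0.215 and -5.50 ± 0.235 (adjusted p = 2.8e-10 and 1.73e-10).

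Between the constructs, the 4 genes that were higher in PRMT5 (E444Q) cells were all on the target lists. Cxcl12, a chemokine, was higher by 0.35 ± 0.0567 (edgeR, adjusted p = 0.00315), at 22.9, 22 and 22.3 CPM against 18, 18.4 and 16.5 CPM. Ccnd1 was higher by 0.26 ± 0.0452 (adjusted p = 0.00465). Osr1, a factor of the early kidney and gonad, was higher by 0.43 ± 0.0887 (adjusted p = 0.0162), at 16.4, 14 and 14.7 CPM against 11.1, 12.1 and 10.4 CPM, and Fgf10, a growth factor of mesenchyme, by 0.37 ± 0.0784 (adjusted p = 0.018), at 11.9, 12.3 and 13.4 CPM against 10.5, 9.6 and 9.03 CPM. The calls of Cxcl12 and Ccnd1 held in each of 17 alternatives. That of Osr1 was lost when PRMT5 (E444Q) replicate 1 or 3 or PRMT5 (WT) replicate 1 or 3 was left out (adjusted p from 0.0539 to 0.108), and that of Fgf10 when replicate 2 or 3 of either was (0.0653 to 0.114). The 2 groups did not overlap for any of the 4. The 7 DACH1 targets all had values above 0 in this comparison, and 2 of them passed the threshold. Their median was 0.274 against 0.00801 over all genes tested, and the 16 EYA and SIX-family targets had a median of -0.0336. Of the 15 feeder fibroblast marker genes described below, 14 were also above 0, with a median of 0.364. Against 4OHT alone Cxcl12, Ccnd1, Osr1 and Fgf10 all fell with both constructs. However, the fall of Osr1 in PRMT5 (E444Q) cells, by 0.23 ± 0.0882 (edgeR, adjusted p = 0.0367), lost its call in 6 of 17 alternatives. Among them were the fits without 4OHT replicate 3 or PRMT5 (E444Q) replicate 2 or 3, where the adjusted p reached 0.248.

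**Figure D4:**
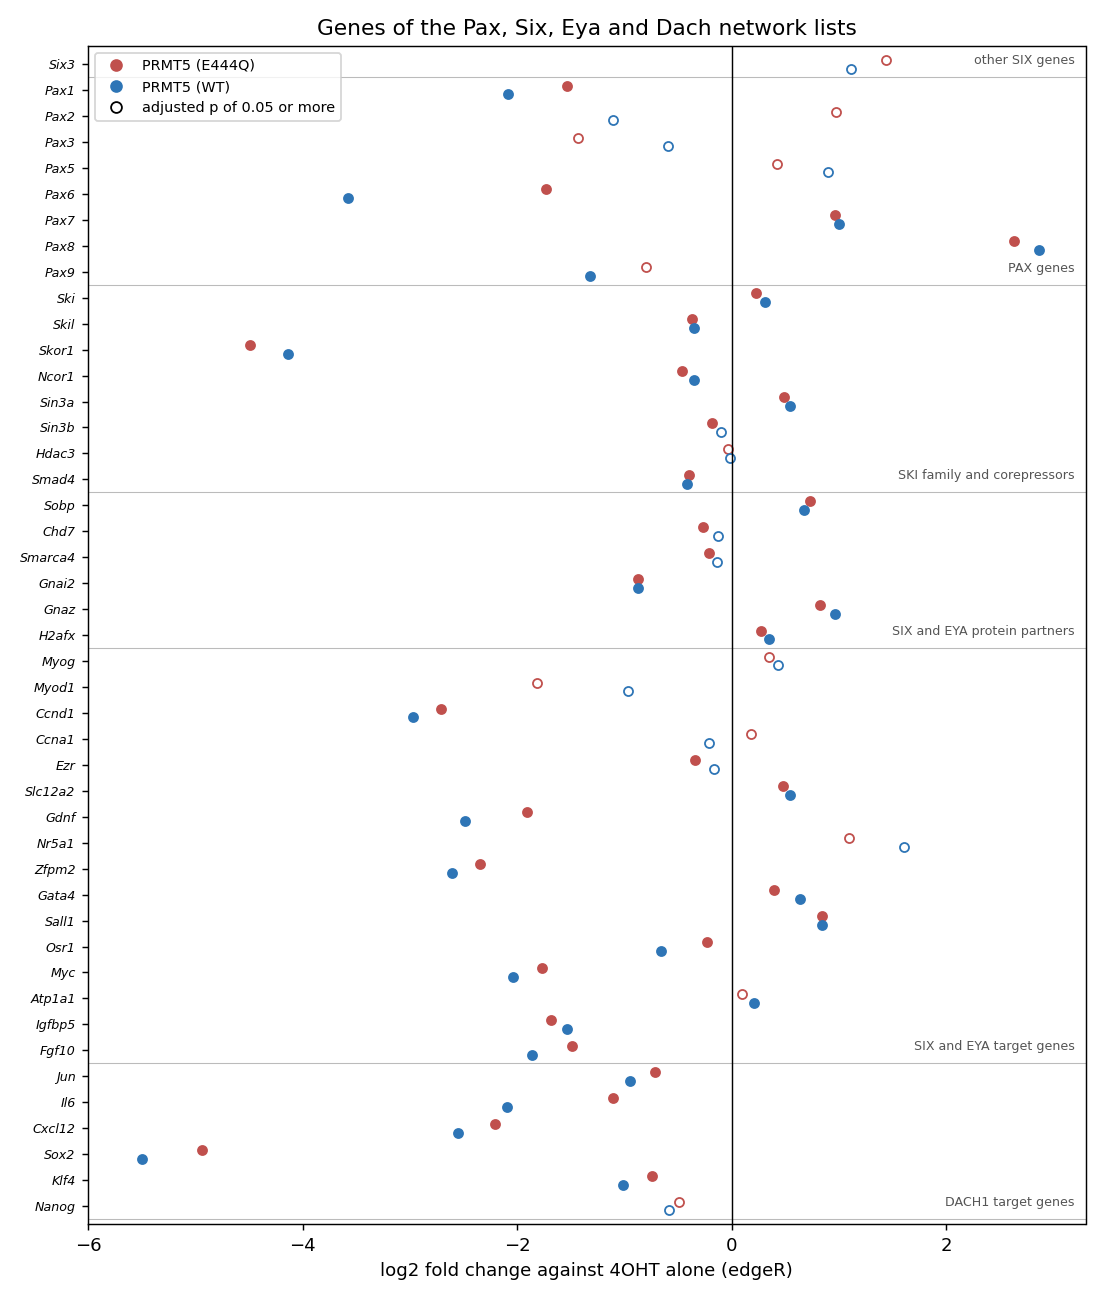
Log2 fold change against 4OHT alone (horizontal axis) of the genes of the network lists that were tested, with red for PRMT5 (E444Q) and blue for PRMT5 (WT); filled points passed an adjusted p of 0.05 and open points did not, Ccnd1 is shown once, and 2 genes are not shown. Skor1 and Sox2 lie furthest to the left, Pax8 furthest to the right, and all 7 DACH1 targets (Ccnd1 is drawn among the targets above) lie left of 0.

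Several members have close neighbours in the GENCODE M21 annotation of GRCm38, but no neighbour within 5000 bp shares an exonic base with a member. Of 11 such genes, 8 small RNAs, pseudogenes and the like held at most 2 counts in a library. The other 3 were expressed. Dmpk, 773 bp from Six5 on the same strand, measured 14.6, 18.9 and 19.8 CPM with 4OHT alone, 9.44, 10.2 and 9.01 CPM in PRMT5 (E444Q) cells and 6.65, 6.66 and 6.51 CPM in PRMT5 (WT) cells. It fell by 0.90 ± 0.11 and 1.43 ± 0.114 (edgeR, adjusted p = 8.76e-06 and 9.86e-08), as Six5 was lower too, and its lowest library with 4OHT alone was the first, as for Six5. Between the constructs Dmpk was higher in PRMT5 (E444Q) cells by 0.53 ± 0.112 (adjusted p = 0.0171), a call that was lost without PRMT5 (E444Q) replicate 1 or 2 or without any 1 of the 3 PRMT5 (WT) libraries (adjusted p from 0.0622 to 0.102). Gm4969, 497 bp from Six5 on the other strand and later named Meiosin for its part in the entry into meiosis, rose instead, by 1.07 ± 0.124 and 0.83 ± 0.125 (adjusted p = 4.85e-06 and 5.85e-05), from 3.33 to 4.34 CPM to 6.47 to 8.7 CPM. Xkr8, a scramblase gene 132 bp from Eya3 on the other strand, fell by 0.47 ± 0.0767 and 0.38 ± 0.0775 (adjusted p = 0.000114 and 0.000781), where Eya3 was higher.

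Over the 9 libraries, Pearson's r of log2 CPM with Dach1 was 0.957 for Eya1, 0.9 for Eya4, 0.848 for Six5, 0.783 for Dach2 and 0.636 for Six2, and -0.98 for Six4, -0.877 for Eya3 and -0.848 for Eya2. These values describe the gap between 4OHT alone and the constructs, since all genes share the same libraries and groups, and an r above 0.95 was reached by 2440 of 15410 genes with at least 1 CPM. Genes with an r below -0.95 were not counted, so the negative values have no such background here. The 5 genes most like Dach1 were Il18rap, a subunit of the interleukin-18 receptor, at 0.9994, Prr13 at 0.9989, Gm6634 and Zfpm2 at 0.9977 each, and Socs5, a suppressor of cytokine signalling, at 0.9975. Il18rap measured 21.7 ± 0.397 CPM (SD, n = 3) with 4OHT alone, 2.42 ± 0.238 CPM in PRMT5 (E444Q) cells and 2.15 ± 0.609 CPM in PRMT5 (WT) cells, and Zfpm2 is also on the list of EYA and SIX-family targets. No member was among the 5.

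Markers of other cells moved with the groups as well. The summed level of 15 genes of the feeder fibroblasts, on which such SSCs are grown, was 12125.7 to 14728.8 CPM with 4OHT alone, 5908.2 to 5989.1 CPM in PRMT5 (E444Q) cells and 4660.1 to 4748.7 CPM in PRMT5 (WT) cells. In PRMT5 (E444Q) cells 14 of the 15 fell and 1 rose, and in PRMT5 (WT) cells all 15 fell (median log2 fold changes -1.16 and -1.32). Between the constructs 13 were higher in PRMT5 (E444Q) cells and 1 lower, with a median of 0.364. The values of the 9 members in that comparison ran from -0.54 for Dach2 to 0.41 for Eya1. The part of the feeder cells in the values of the members and of their targets was not tested.

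The 10 macrophage genes rose with both constructs, from 170.2 to 186.5 CPM in sum to 1138.2 to 1170.8 CPM in PRMT5 (E444Q) cells and 2212.7 to 2337.4 CPM in PRMT5 (WT) cells, and 8 of them were lower in PRMT5 (E444Q) cells than in PRMT5 (WT) cells. The 12 germ cell genes, none of them at 0, summed to 1900.9 to 1968.7 CPM with 4OHT alone, 2599.6 to 2697.8 CPM in PRMT5 (E444Q) cells and 2828.4 to 2860.1 CPM in PRMT5 (WT) cells, and 6 rose and 5 fell with each construct. The 9 Sertoli cell genes summed to 129.4 to 158.5 CPM with 4OHT alone and at most 57.1 CPM elsewhere, with Fshr at 0 throughout. Of the 8 that were tested, 3 rose and 3 fell with each construct, and most of the sum was Inhbb, at a mean of 120.0 CPM with 4OHT alone, 37.7 CPM in PRMT5 (E444Q) cells and 30.9 CPM in PRMT5 (WT) cells. The 8 genes of Leydig and peritubular myoid cells summed to 105.3 to 112.0 CPM with 4OHT alone and at most 49.8 CPM elsewhere, with Hsd3b1 at 0 throughout and Cyp11a1 at 0 with 4OHT alone. Of the 5 that were tested, 1 rose and 2 fell with each construct, and most of the sum was Acta2, at means of 88.0, 27.8 and 22.3 CPM. Inhbb and Acta2 were named after their values were seen. The 5 endothelial genes summed to 17 to 20.6 CPM in all groups, but single genes moved. In PRMT5 (E444Q) cells 2 rose and 2 fell, and in PRMT5 (WT) cells 2 rose and 1 fell. Whether these cells contribute to the members' values was not tested.

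**Figure D5:**
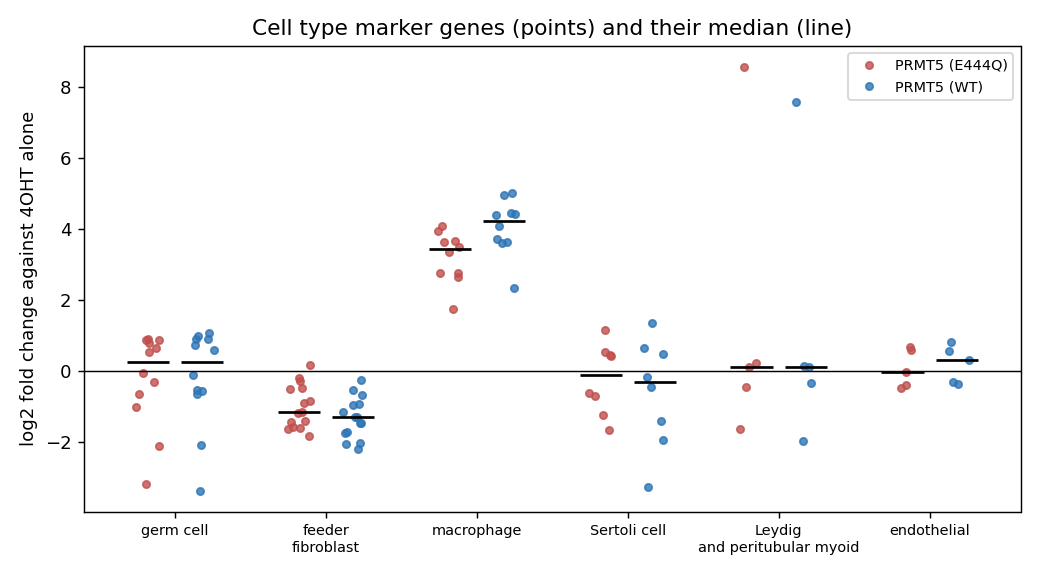
Log2 fold change against 4OHT alone (vertical axis) of the cell type marker genes that were tested, 1 point per gene, with red for PRMT5 (E444Q), blue for PRMT5 (WT) and the median of each list as a line. The feeder fibroblast genes lie mostly below 0 (medians -1.16 and -1.32) and the macrophage genes all above it (3.42 and 4.23); the highest point of the Leydig and peritubular myoid list is Cyp11a1, which is at 0 with 4OHT alone, so its height depends on the prior count.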

How the data were processed

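RNA-seq was analysed for 9 libraries in 3 groups of 3, taken from the sample titles. The table the authors deposited holds 53801 genes in raw counts, all whole numbers. Per the paper's methods and the submitters' processing notes, reads were trimmed with BBmap and Trimmomatic 0.39, aligned to GRCm38 with HISAT2 2.2.1 and quantified with StringTie 2.2.1. How this output became whole numbers, whether strand was kept and how reads with several alignments were counted are not given in the sources used here. Values of 4 counts were 1.35 to 1.84 times as frequent as those of 3 and 5, so about 4 counts were taken to stand for 1 read pair, which was not checked against the reads. Genes were handled by identifier, since 125 symbols belong to more than 1 gene, and coordinates and exon lengths came from GENCODE M21 (GRCm38).

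Low counts were removed by filterByExpr (by group, at least 10 counts and 15 in total), and the rest were TMM-scaled and fitted in R 4.3.3 with edgeR 4.0.16 (quasi-likelihood test, group as the only factor, all 9 libraries, common biological coefficient of variation 0.155). Benjamini-Hochberg adjustment ran over 22452 genes, calls were made under 0.05, and intervals cover 95%. The median coefficient of variation over the 2742 genes of at least 100 CPM was 6.56% with 4OHT alone, 2.02% in PRMT5 (E444Q) cells and 2.51% in PRMT5 (WT) cells. Standard errors and intervals were worked back from the log2 fold change and the F statistic of the quasi-likelihood test. They therefore include the estimated spread between libraries.

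The members, gene lists and tests were chosen with earlier results of these data known. Named are all members, Prmt5, the genes of each list past the threshold between the constructs, the 2 per list and contrast with 4OHT alone with the largest called change and a mean of at least 1 CPM, the 5 genes most like Dach1, and neighbours within 5000 bp. Six3, Pax1, Pax6, Sin3a, Nanog and marker genes at 0 were named after their values were seen. Alternatives were no filter or a stricter one, other size factors, DESeq2 1.42.0, counts divided by 4, 2-group fits, a replicate block, leaving out each library and, added after seeing the data, total-count scaling. The fits were tested on simulated data. Sequences came from RefSeq (GRCm38.p6). The values of 2 genes of the lists are not reported here.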

Additional observations from a re-analysis of the deposited data

Results flagged for a closer look

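4 genes of the network lists were picked out because their change from 4OHT alone differed between the constructs in the edgeR test of PRMT5 (E444Q) against PRMT5 (WT). On the log2 scale, the difference was 0.26 for Ccnd1, 0.43 for Osr1, 0.37 for Fgf10 and 0.35 for Cxcl12, each higher in PRMT5 (E444Q) cells. The 15 feeder fibroblast genes had a median difference of 0.364 in the same direction, and 13 of them passed the threshold. Their part in the 4 values was not tested.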

How the results depend on the processing

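Between the constructs, 712 genes were called in all and 4 on the network lists. With the DESeq2 Wald test these counts were 1140 and 7, and with only the 2 groups compared in the fit 1565 and 10. Leaving out 1 library gave 400 to 1099 genes, the most without 4OHT replicate 3 and the fewest without PRMT5 (E444Q) replicate 2 (432 and 411 without its replicates 1 and 3, 472 without PRMT5 (WT) replicate 3), and 2 to 6 on the lists, with 2 without replicate 3 of either construct. The cause was not tested. No member was called under any alternative, with a lowest adjusted p of 0.139 for Eya3, but the sign turned without 1 PRMT5 (WT) library for Eya2 (0.12 without replicate 2, down to -0.17 without others), Six4 (0.00026 without replicate 1, down to -0.10) and Six5 (-0.014 without replicate 3, up to 0.24).

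Against 4OHT alone, the direction of every member was the same in the 17 alternatives (15 for Dach2). Dach2 was dropped by the filter at a mean of at least 1 CPM. It was also dropped with counts divided by 4, the number taken here for 1 read pair. Scaling by total counts, added after seeing the data, moved the median of all genes by 0.112 for PRMT5 (E444Q) and 0.0882 for PRMT5 (WT), raised the share of higher calls in PRMT5 (E444Q) cells from 52.7% to 61.3%, and gave 0.30 and 0.35 for Eya3 with the 2 constructs and 0.73 for Six4 in PRMT5 (E444Q) cells. Of 850 values of the other named genes, 19 lost their call and none turned.

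No pairing by replicate number was visible. Same-numbered libraries of different groups had correlations of their deviations from -0.0193 to 0.0431, and libraries with different numbers from -0.0375 to 0.0391. With 3 libraries per group, this cannot show whether the samples were paired. With a replicate block, 674 genes and 4 network genes were called between the constructs, and no member. Depth limits Dach1 and Dach2 most, which rest on 9 to 78 counts per library with the constructs.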
